A study of Mus musculus with 4 samples.

Results

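Mature non-cycling goblet cells of the mouse small-intestinal crypt were described in 4 single-cell RNA libraries. Allogeneic 1 and allogeneic 2 came from lethally irradiated C57BL/6 recipients of BALB/c marrow, labelled as having graft-versus-host disease, and syngeneic 1 and syngeneic 2 from lethally irradiated C57BL/6 recipients of C57BL/6 marrow, all taken 7 days after transplantation. All 4 sample titles start with the letters KO, which the labels do not explain; no altered gene is named, and the recipients' genotype is given only as the strain. Each library pooled 3 to 4 female mice aged 8 to 12 weeks, so the replicate was the pool (n = 2 per group), individual mice could not be told apart, and every p-value below measures the spread between pools. Members were chosen by measured values, the UMI counts of the genes named here, so these genes are described below without a test. A cell was a member when Muc2, Tff3, Fcgbp, Zg16, Clca1 and Agr2 together held at least 1% of its unique molecular identifiers (UMIs, one per captured RNA molecule), when 7 cell-cycle genes together had at most 2 UMIs, when Lyz1 plus the defensin genes held under 5%, and when Ptprc, the pan-leukocyte gene, had none. Of 12285 kept cells (at least 500 genes and 1000 UMIs, at most 20% mitochondrial UMIs) 958 were members: 135 in allogeneic 1 and 274 in allogeneic 2, against 286 in syngeneic 1 and 263 in syngeneic 2.

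Goblet cells make and secrete the gel-forming mucin Muc2 and the proteins that cross-link and stabilise it, and so build the mucus layer that keeps bacteria away from the epithelium. They arise from crypt progenitors under the transcription factors Atoh1 and Spdef, and fill with Zg16, Clca1 and Fcgbp as they mature. In graft-versus-host disease donor T cells attack host tissue and release interferon-gamma, a cytokine that switches on MHC genes, guanylate-binding proteins and chemokines in many cell types. MHC class I molecules show peptides to CD8 T cells, and MHC class II molecules, with their invariant chain Cd74 and their peptide editor H2-DM, show peptides to CD4 T cells.

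Promoters of 5 MHC genes on which the results below turn are shown first, because these genes lay higher in allogeneic members together. They are RefSeq sequences of build GRCm38.p6, 250 bases before to 50 bases after the annotated start, written 5′ to 3′ along the gene's own strand. Capitals mark 2 motifs searched on both strands: TGATTGG, the core of the Y box of MHC class II promoters (printed as CCAATCA where it lies on the other strand), and GTTTCAC, a core of interferon response elements (GTGAAAC on the other strand). H2-Aa and H2-Eb1 encode the alpha chain and a beta chain of MHC class II molecules, H2-DMb1 a chain of the peptide editor, and H2-Q4 and H2-Q7 non-classical class I molecules. H2-Aa lies at chr17:34287774-34288073 on the minus strand, H2-Eb1 at chr17:34305617-34305916, H2-DMb1 at chr17:34152941-34153240, H2-Q4 at chr17:35379367-35379666 and H2-Q7 at chr17:35438905-35439204, these 4 on the plus strand.
H2-Aa: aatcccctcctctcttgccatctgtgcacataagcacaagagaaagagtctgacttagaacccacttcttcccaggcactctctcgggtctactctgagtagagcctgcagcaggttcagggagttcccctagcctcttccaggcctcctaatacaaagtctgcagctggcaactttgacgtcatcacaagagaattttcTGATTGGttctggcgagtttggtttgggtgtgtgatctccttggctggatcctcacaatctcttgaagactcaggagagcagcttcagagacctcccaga
H2-Eb1: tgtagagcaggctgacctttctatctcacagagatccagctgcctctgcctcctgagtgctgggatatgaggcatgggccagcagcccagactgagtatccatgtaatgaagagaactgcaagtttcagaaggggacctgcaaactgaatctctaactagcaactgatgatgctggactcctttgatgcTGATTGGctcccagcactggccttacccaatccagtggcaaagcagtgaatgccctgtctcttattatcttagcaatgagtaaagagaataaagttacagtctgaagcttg
H2-DMb1: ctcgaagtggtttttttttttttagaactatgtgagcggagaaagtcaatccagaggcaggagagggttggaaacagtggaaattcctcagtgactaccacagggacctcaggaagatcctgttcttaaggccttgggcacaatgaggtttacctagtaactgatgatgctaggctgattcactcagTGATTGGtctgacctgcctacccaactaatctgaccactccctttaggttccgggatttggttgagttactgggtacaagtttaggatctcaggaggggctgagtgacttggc
H2-Q4: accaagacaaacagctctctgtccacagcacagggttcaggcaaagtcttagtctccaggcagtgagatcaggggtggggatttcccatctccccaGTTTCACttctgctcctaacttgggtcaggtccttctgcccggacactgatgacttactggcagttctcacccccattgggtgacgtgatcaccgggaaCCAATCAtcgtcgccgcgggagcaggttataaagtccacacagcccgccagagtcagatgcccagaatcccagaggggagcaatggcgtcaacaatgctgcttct
H2-Q7: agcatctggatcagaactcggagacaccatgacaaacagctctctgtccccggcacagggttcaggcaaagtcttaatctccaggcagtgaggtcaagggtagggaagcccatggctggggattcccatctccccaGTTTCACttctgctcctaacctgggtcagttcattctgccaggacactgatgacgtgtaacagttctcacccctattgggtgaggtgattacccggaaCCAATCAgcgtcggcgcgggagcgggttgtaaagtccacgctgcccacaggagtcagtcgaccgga
The Y box core began 50 bases before the start in H2-Aa, 61 in H2-Eb1, 63 in H2-DMb1, 55 in H2-Q4 and 16 in H2-Q7, and the interferon element began 154 bases before the start in H2-Q4 and 114 in H2-Q7. Of 32851 promoters of this length, 7.82% held the Y box core and 2.5% the interferon element core. A match is a description of letters only, and the motifs did not overlap.

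Goblet members made up a smaller share of kept cells in both allogeneic libraries. They were 6.55% of 2061 kept cells in allogeneic 1 (exact Clopper-Pearson 95% interval 5.52 to 7.71%) and 5.61% of 4881 in allogeneic 2 (4.98 to 6.30%), against 9.95% of 2875 in syngeneic 1 (8.88 to 11.1%) and 10.7% of 2468 in syngeneic 2 (9.47 to 11.9%). The mean was 6.08% ± 0.662 in allogeneic and 10.3% ± 0.501 in syngeneic libraries (SD, n = 2), without overlap, and the 2-sided exact permutation p was 0.333, the smallest that 2 pools against 2 allow. Intervals cover counting error only. Among epithelial cells alone the shares were 7.47% and 5.88% in allogeneic 1 and 2, against 10.04% and 10.8% in syngeneic 1 and 2. Crypt isolation and the filters on cells also act on these shares; their part was not tested.

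The median share of UMIs in the criterion genes was lower in both allogeneic libraries, while single members overlapped. As a description of values that chose the cells, this median was 3.16% and 4.82% in allogeneic 1 and 2, against 6.31% and 7.49% in syngeneic 1 and 2. Cells at 5% or more made up 31.1% and 48.2% of members in allogeneic 1 and 2, against 58.04% and 68.4% in syngeneic 1 and 2. The highest member was at 43.7% and 47.5% in allogeneic 1 and 2, against 55.3% and 56.6% in syngeneic 1 and 2. Just inside the limit, between 1% and 1.1%, lay 9 and 6 allogeneic against 4 and 1 syngeneic cells, and just outside, from 0.9% up to 1%, lay 7 and 11 against 3 and 0. The members had a median of 4262 and 3180 UMIs in allogeneic 1 and 2, against 3759 and 3607 in syngeneic 1 and 2. Cells that passed the goblet criterion but had over 2 cell-cycle UMIs numbered 83 and 204 in allogeneic 1 and 2, against 183 and 178 in syngeneic 1 and 2. The ratio of members to these cycling cells was 1.63 and 1.34 in the allogeneic libraries, against 1.56 and 1.48 in the syngeneic ones, which lie between them.

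**Figure D1:**
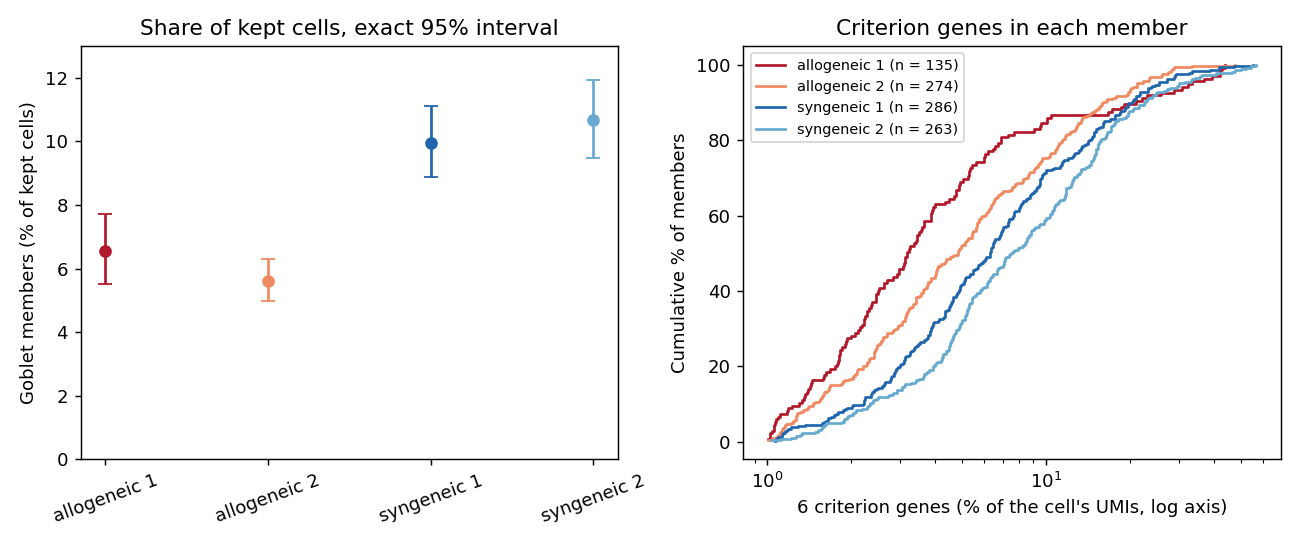
Left: goblet members as a percentage of kept cells in each library, with the exact 95% binomial interval as bars; both allogeneic libraries (6.55% and 5.61%) lay below both syngeneic ones (9.95% and 10.7%). Right: cumulative percentage of members against the share of their UMIs in the 6 criterion genes on a log axis; the curve of allogeneic 1 lay furthest to the left over most of its length, with a median of 3.16%.

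The leading criterion gene of the members differed between libraries. In allogeneic 1 the criterion gene with the most UMIs was Tff3, the trefoil peptide, in 83 of 135 members (61.5%), against 20 of 274 in allogeneic 2, 27 of 286 in syngeneic 1 and 22 of 263 in syngeneic 2. Zg16, a lectin of the mature granule, led 22 and 132 members of allogeneic 1 and 2, against 114 and 120 of syngeneic 1 and 2. Agr2, the disulfide isomerase that folds mucin, led 30 and 119, against 142 and 119. Allogeneic 1 therefore stood apart from the other 3 libraries in the leading criterion gene of its members. In other markers given below both allogeneic libraries stood apart from the syngeneic ones, in opposite directions. After each cell was thinned to 2000 UMIs, all 6 genes were detected in 21.1% of 114 members of allogeneic 1 and 54.2% of 225 of allogeneic 2, against 49.8% of 271 in syngeneic 1 and 47.1% of 242 in syngeneic 2.

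Genes outside the criterion differed between the members led by Tff3 and those led by Zg16. These levels are UMI counts scaled to the total of the subset (CPM), a description within sets that the criterion genes define. In allogeneic 1 Krt20, a keratin of differentiated villus cells, was at 83.8 CPM in Tff3-led members and 793.1 CPM in Zg16-led ones. Olfm4, a gene of crypt progenitors, was at 335.3 and 9.79 CPM in the same 2 sets, and Mmp7, a protease of Paneth cells, at 6441 and 1155 CPM. The order was the same for Mmp7 in allogeneic 2 (2430 CPM in Tff3-led and 1033 CPM in Zg16-led members), syngeneic 1 (3690 and 941 CPM) and syngeneic 2 (2986 and 1086 CPM). Zg16-led members of all 4 libraries also carried Fabp6, the bile acid binding protein of the ileum: 2174 and 9668 CPM in allogeneic 1 and 2, against 11787 and 8046 CPM in syngeneic 1 and 2. Fabp6 in Tff3-led members differed widely: it was at 2.89 and 3645 CPM in allogeneic 1 and 2, against 32.6 and 12650 CPM in syngeneic 1 and 2. In Tff3-led and Zg16-led members Krt20 was at 1501 and 1782 CPM in allogeneic 2, 174 and 557 CPM in syngeneic 1 and 400.1 and 667 CPM in syngeneic 2. Olfm4 was at 0 and 5.53 CPM in allogeneic 2, 271 and 93.4 CPM in syngeneic 1 and 308 and 56.6 CPM in syngeneic 2. With Tff3-led cells the largest set in allogeneic 1 and low in Krt20, the label mature is less certain there.

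**Figure D2:**
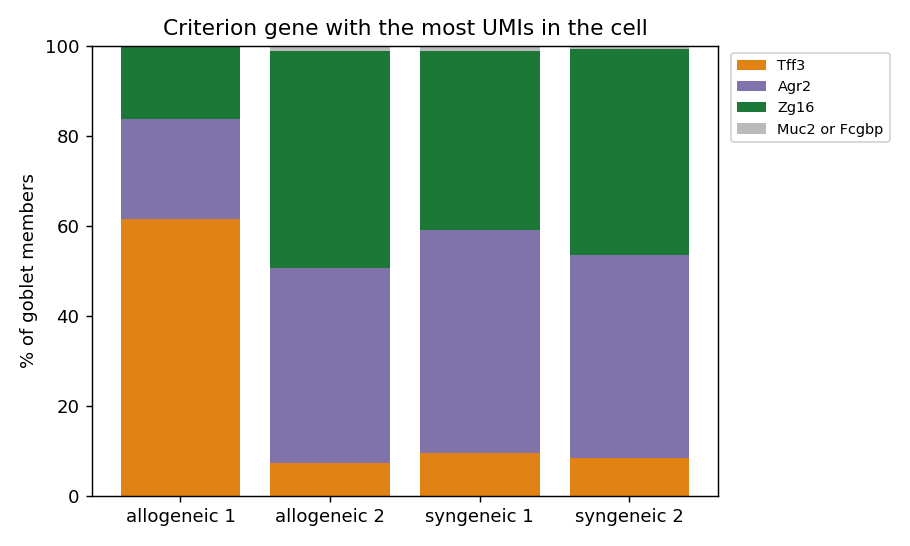
Stacked bars: percentage of goblet members in each library whose most abundant criterion gene was Tff3, Agr2, Zg16, or Muc2 or Fcgbp. Tff3 led 61.5% of members in allogeneic 1 and at most 9.44% in each of the other libraries.

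Atoh1 and Spink4, which the rule did not use, were higher in members than in other epithelial cells in every library, and so was Mmp7, a Paneth gene. On the CPM scale of the joint fit with other epithelial cells (TMM normalised), Atoh1, the factor that commits cells to the secretory fate, was at 196 and 190 CPM in members of allogeneic 1 and 2, against 191 and 186 CPM in those of syngeneic 1 and 2. In other epithelial cells Atoh1 was at 17.1 and 23.1 CPM in the allogeneic and 8.79 and 5.88 CPM in the syngeneic libraries. Spink4, a protease inhibitor of the goblet granule, was between 17104 and 30819 CPM in members and between 319 and 1139 CPM in other epithelial cells. Mmp7 was at 4673 and 2505 CPM in members of allogeneic 1 and 2, against 1774 and 2026 CPM in those of syngeneic 1 and 2. In other epithelial cells Mmp7 was at 673 and 429 CPM in the allogeneic and 88.7 and 59.6 CPM in the syngeneic libraries. Markers of blood and stromal cells were near absent from the members. Of 7 T or NK markers 4 to 7 were at 0 in each library, with a sum of 0 to 8 CPM; all 4 B or plasma markers were at 0; the 4 myeloid markers summed to at most 5 CPM and the 4 stromal markers to at most 2 CPM.

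Markers of other epithelial cells did move with the libraries. Summed levels are CPM of all UMIs of the members, and single genes are TMM-scaled. The 8 enterocyte markers summed to 2485 and 19352 CPM in members of allogeneic 1 and 2, against 5379 and 5275 CPM in syngeneic 1 and 2. Fabp2, the fatty acid binding protein of enterocytes, was at 998 and 13653 CPM in allogeneic 1 and 2, against 3785 and 3854 CPM in syngeneic 1 and 2, so that the syngeneic libraries lay between the allogeneic ones. The 8 Paneth markers, 4 of them used by the rule, summed to 18089 and 6885 CPM in allogeneic 1 and 2, against 13024 and 14609 CPM in syngeneic 1 and 2. In other epithelial cells they summed to 2755 and 1996 CPM in the allogeneic and 1599 and 1050 CPM in the syngeneic libraries. Members with 1% or more of UMIs in Lyz1 plus defensins made up 28.1% and 11.7% in allogeneic 1 and 2, against 28.7% and 22.4% in syngeneic 1 and 2. The 5 stem cell markers summed to 325 and 12 CPM, against 233 and 210 CPM, and the 4 colonocyte markers to 144 and 1585 CPM, against 191 and 148 CPM. Members of both allogeneic libraries thus lay outside the range of the syngeneic ones in the enterocyte, Paneth, stem cell and colonocyte sums, on opposite sides. The colonocyte sum of allogeneic 1, at 144 CPM, was close to the 148 CPM of syngeneic 2. The part of these differences in the results below was not tested.

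Genes of antigen presentation and the interferon-gamma response lay higher in allogeneic members, although few single genes passed the test. Across 7651 genes edgeR's quasi-likelihood test on counts summed per library, with Benjamini-Hochberg adjustment, called 4 genes that rose in allogeneic members and 0 that fell (0.0524% and 0% of the 7629 genes not used by the rule). At an unadjusted p under 0.05 there were 504 genes, and DESeq2 called 48 that rose and 2 that fell. The 4 genes were H2-Q4, H2-Q6 and H2-Q7, class I molecules beside the classical ones, and Cxcl9, the interferon-gamma chemokine that draws T cells through Cxcr3. Log2 values of the allogeneic libraries differed from each other with an SD of 0.957, against 0.384 between the syngeneic ones, and in simulated counts of this design the test recovered 73 of 100 genes changed 4-fold and 5 of 100 changed 2-fold, with 15 false calls among 7185 genes. DESeq2 recovered 70 and 2, with 17 false calls, so false calls were above the nominal share for both. The changed genes were drawn only from those with higher mean counts, and each gene had the same simulated spread in both groups. Recovery at low counts or with unequal spread was therefore not measured. Leaving out allogeneic 1 left 1 allogeneic library and called 1850 genes, leaving out allogeneic 2 called 453, and leaving out syngeneic 1 or 2 called 21 or 23; each assumes that the lone library varies like the others.

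H2-Q7 (ENSMUSG00000060550, chr17:35439155-35443773, GRCm38) was at 362 and 246 CPM in allogeneic 1 and 2, against 12.3 and 12.2 CPM in syngeneic 1 and 2. This is a log2 fold change of 4.62 ± 0.38 (SE), at an edgeR adjusted p of 0.0487. H2-Q6 (ENSMUSG00000073409, chr17:35424850-35430055) was at 131 and 59.3 CPM in the allogeneic libraries, against 1.53 and 1.87 CPM in the syngeneic ones, a log2 fold change of 5.70 ± 0.58 (adjusted p = 0.0487). H2-Q4 (ENSMUSG00000035929, chr17:35379617-35385290) was at 129 and 121 CPM, against 14.6 and 12.2 CPM, a log2 fold change of 3.21 ± 0.31 (adjusted p = 0.0487). The H2-Q genes are near copies of each other, so the authors' counting could split or drop their reads, and the 3 values are uncertain one from another. Cxcl9 (ENSMUSG00000029417, chr5:92321347-92328079) was at 182 and 224 CPM, against 3.06 and 8.44 CPM, a log2 fold change of 5.15 ± 0.49 (adjusted p = 0.0487). The groups lay far apart for all 4 genes. Cxcl9's log2 fold change was 2.34 in Zg16-led members alone (adjusted p = 0.24) and 7.05 in Agr2-led ones. Over the 23 alternatives the adjusted p ranged up to 0.143 for H2-Q6 and H2-Q7, 0.188 for H2-Q4 and 0.24 for Cxcl9, and the direction was the same in each; the call held in 17 of 23 for Cxcl9, 16 for H2-Q4 and H2-Q7 and 15 for H2-Q6.

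MHC class I genes were higher in both allogeneic libraries for most of the list. Of its 22 genes 21 passed the filter on low counts, and in 18 both allogeneic libraries lay above both syngeneic ones (17.7% of all genes tested did so), in 0 below (18.5%). With library totals in place of TMM the median of all genes was -0.12 on the log2 scale, the backgrounds were 919 genes above and 1872 below, against 1348 and 1413, and this list had 18 and 0. In 11 the nearest libraries were at least 2-fold apart (1.35% of all genes), and the median log2 fold change was 1.64, against 0.03 over all genes tested. B2m, the light chain shared by class I molecules, was at 2523 and 3365 CPM in allogeneic 1 and 2, against 436 and 420 CPM in syngeneic 1 and 2 (log2 2.78 ± 0.37, adjusted p = 0.104, not called). The classical heavy chain H2-K1 was at 2574 and 3297 CPM, against 845 and 885 CPM, and H2-D1 at 1871 and 2621 CPM, against 538 and 631 CPM. Psme1, a regulator of the proteasome that cuts peptides for class I, was at 660 and 951 CPM, against 299 and 286 CPM.

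MHC class II genes lay apart in every gene measured, without a call. Of 9 genes 8 passed the filter, and in all 8 both allogeneic libraries were above both syngeneic ones, in 7 by at least 2-fold. Over all genes tested these shares were 17.7% and 1.35%. The median log2 fold change of the list was 2.25. Cd74, the invariant chain, was at 6075 and 6819 CPM in allogeneic 1 and 2, against 1089 and 1049 CPM in syngeneic 1 and 2 (log2 2.59 ± 0.36, adjusted p = 0.104). H2-Aa was at 1330 and 1210 CPM, against 238 and 214 CPM, and H2-Ab1, the partner beta chain, at 1507 and 1019 CPM, against 295 and 289 CPM. H2-Eb1 was at 1136 and 697 CPM, against 165 and 161 CPM. The editor chain H2-DMa was at 263 and 180 CPM, against 45.9 and 42.2 CPM, and H2-DMb1 at 410 and 398 CPM, against 98.8 and 79.7 CPM. Ciita, the regulator that switches class II genes on, was at 28.7 and 27.1 CPM, against 9.19 and 12.2 CPM. H2-Aa was also read in T cells of the same libraries, which make little class II, scaled to their own total. It was at 319 and 332 CPM in allogeneic 1 and 2 (154 and 104 cells), against 293 and 215 CPM in syngeneic 1 and 2 (9 and 20 cells). The 9 class II genes summed to 2520 and 2663 CPM in these allogeneic T cells, against 3482 and 1960 CPM in the syngeneic ones. T cells had fewer UMIs than members, with medians of 1879 and 2053 in allogeneic and 2693 and 1349.5 in syngeneic libraries. Levels in T cells and members are therefore not on 1 scale, and the part of free RNA was not tested.

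The interferon-gamma list, which holds guanylate-binding proteins, immunity-related GTPases and their regulators, lay higher in both allogeneic libraries for each of the 17 genes, of 25, that passed the filter. In 13 the nearest libraries were at least 2-fold apart, and the median log2 fold change was 2.35. Over all genes tested 17.7% lay higher in both allogeneic libraries, and 1.35% were at least 2-fold apart in this direction. Some genes passed the filter only through the allogeneic libraries, so the whole list was also taken: of 25 genes with a UMI 23 lay higher in both allogeneic libraries and 0 lower, against 15.4% and 16.7% of all 13549 genes with a UMI. The 25 genes summed to 2827 and 4824 CPM of all UMIs in allogeneic 1 and 2, against 737 and 720 CPM in syngeneic 1 and 2. Ido1, the enzyme that breaks down tryptophan, was at 702 and 2819 CPM, against 52.8 and 68.4 CPM (log2 4.86 ± 0.74, adjusted p = 0.12). Iigp1, a GTPase that acts on the vacuoles of intracellular parasites, was at 276 and 256 CPM, against 18.4 and 8.44 CPM (log2 4.28 ± 0.44, adjusted p = 0.0569). Gbp4 had 54 UMIs in the allogeneic members and 0 in the syngeneic ones; with the 3 counts that a count of 0 allows over the group, it was at least 23.6-fold higher. Ubd, a ubiquitin-like modifier, was at 104 and 357 CPM, against 5.36 and 7.50 CPM. Irf8, an interferon regulatory factor, was at 250 and 244 CPM, against 101 and 95.6 CPM, and Wars, a tryptophan tRNA ligase, at 616 and 498 CPM, against 262 and 243 CPM.

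Interferon-stimulated genes that several interferon types share also lay higher. Of 28 genes 17 passed the filter, 14 lay higher in both allogeneic libraries and 0 lower, against 17.7% and 18.5% of all genes tested. By at least 2-fold 6 lay higher (1.35% of all genes), and the median log2 fold change was 1.62. Among all 27 with a UMI 21 lay higher and 0 lower, against 15.4% and 16.7% of all genes with a UMI. Usp18, which takes Isg15 off proteins, was at 28.7 and 57.3 CPM in allogeneic 1 and 2, against 0.766 and 2.81 CPM in syngeneic 1 and 2. Bst2, tetherin, was at 139 and 151 CPM, against 42.1 and 32.8 CPM. Ifi27l2b was at 455 and 652 CPM, against 329 and 381 CPM. Among chemokines and ligands of lymphocytes, 7 of 15 passed, 3 lay higher and 2 lower, against 17.7% and 18.5% of all genes tested. The filter can keep genes through the allogeneic libraries alone, so the whole list was also taken. Of its 13 genes with a UMI 6 lay higher and 3 lower, against 15.4% and 16.7% of all genes with a UMI. Cxcl10, which shares the receptor of Cxcl9, was at 35.1 and 76.0 CPM, against 5.36 and 0 CPM. Ccl25, the small-intestinal homing chemokine, was at 51.04 and 327 CPM, against 172 and 126 CPM, so the groups overlapped.

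**Figure D3:**
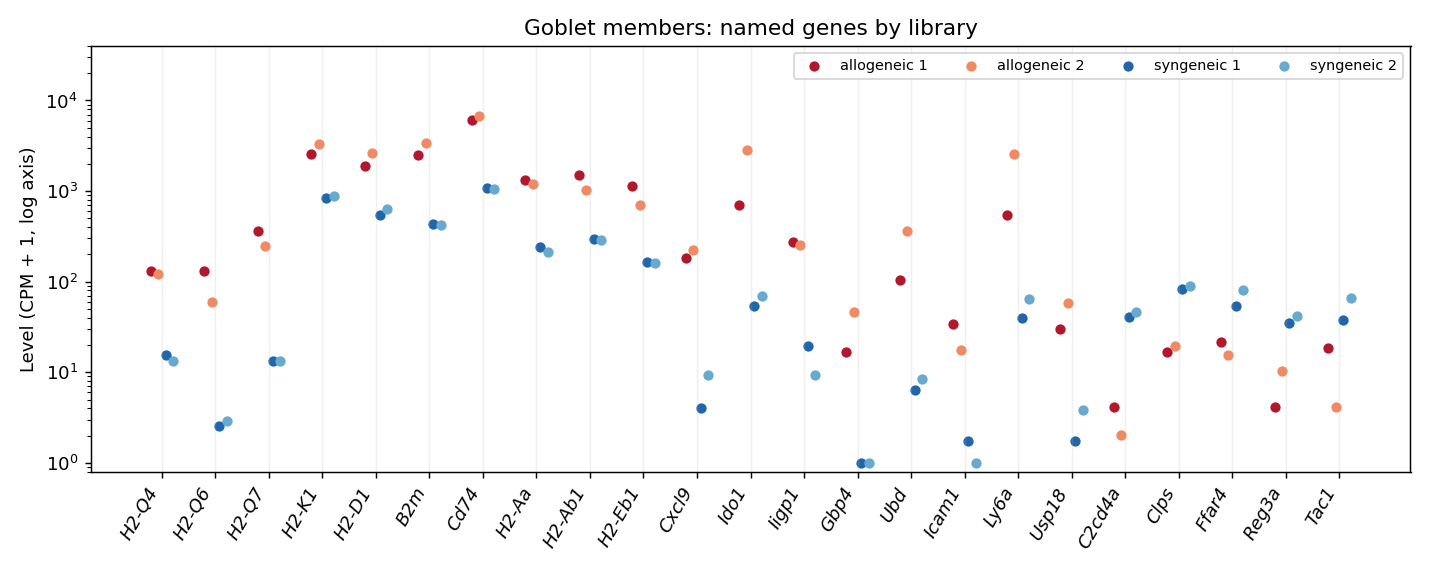
Level of named genes in goblet members of each library, as CPM + 1 on a log axis; each point is 1 library, allogeneic ones left of syngeneic ones. For the genes from H2-Q4 to Usp18 both allogeneic points lie above both syngeneic points, and for C2cd4a, Clps, Ffar4, Reg3a and Tac1 below.

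Other genes with wide separation were named by the same rule, the largest fold changes among genes whose nearest libraries lay at least 2-fold apart; none of them passed the test. Serping1, the C1 inhibitor of complement, had 55 UMIs in allogeneic members and 0 in syngeneic ones, at least 24.0-fold higher. Icam1, the adhesion molecule that binds leukocyte integrins, was at 33.5 and 16.7 CPM in allogeneic 1 and 2, against 0.766 and 0 CPM in syngeneic 1 and 2. Cdkn1c, an inhibitor of the cell cycle, was at 38.3 and 19.8 CPM, against 0.766 and 1.87 CPM. Ly6a, known as Sca-1, was at 550.2 and 2593 CPM, against 38.3 and 62.8 CPM (log2 4.96 ± 0.82, adjusted p = 0.158).

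On the lower side, 55 genes lay at least 2-fold apart (0.721% of genes tested) and none was called. C2cd4a, a nuclear protein with a calcium-binding type domain, was at 3.19 and 1.04 CPM in allogeneic 1 and 2, against 39.8 and 45.0 CPM in syngeneic 1 and 2 (log2 -4.37 ± 0.54, adjusted p = 0.0935). Clps, the cofactor of lipase, was at 15.9 and 18.7 CPM, against 81.9 and 89.1 CPM, and Plb1, a phospholipase, at 9.57 and 3.12 CPM, against 35.2 and 27.2 CPM. Ffar4, a receptor for long-chain fatty acids, was at 20.7 and 14.6 CPM, against 52.8 and 79.7 CPM. Reg3a, an antibacterial lectin, was at 3.19 and 9.37 CPM, against 33.7 and 40.3 CPM. Tac1, the precursor of substance P, was at 17.5 and 3.12 CPM, against 36.8 and 65.6 CPM, and Kitl, the ligand of the receptor Kit, at 7.97 and 8.33 CPM, against 28.3 and 23.4 CPM. Dpysl3, Smim5, Sdccag8, Zfp322a and Tnfsf13os completed the list, with log2 fold changes from -2.83 to -1.75; Tnfsf13os is annotated as an opposite-strand RNA, and the sources do not state whether counting used strand.

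Over all members, mucus layer proteins lay lower in both allogeneic libraries more often than higher, without a call. Of 23 mucus layer proteins beside the criterion 20 passed the filter. Of these 3 lay higher in both allogeneic libraries and 10 lower, against 17.7% and 18.5% of all genes tested, and on library totals 1 and 10. On library totals the excess was not seen in Zg16-led members alone. There 4 of the 20 lay higher and 6 lower, against 955 and 2625 of 7629 genes. In Agr2-led members alone 3 lay higher and 8 lower, against 1165 and 1981 genes. In members led by either gene, 3 lay higher and 10 lower, against 1045 and 2394 genes. In allogeneic 1 the Zg16-led set had 22 cells and the Agr2-led set 30. In their own fits 5235 and 4824 genes were tested, so the 7629 include genes with low counts there. Whether the excess was absent in Zg16-led members therefore cannot be decided. Over all members the nearest libraries were at least 2-fold apart for 1 higher and 2 lower. Of the 20 genes 0 were called (3 at an unadjusted p under 0.05 by edgeR), and the median log2 fold change was -0.18. Spink4 was at 19313 and 16054 CPM in allogeneic 1 and 2, against 21448 and 29433 CPM in syngeneic 1 and 2. Itln1, the intelectin that binds microbial glycans, was at 2692 and 1041 CPM, against 3368 and 4897 CPM. Guca2a, guanylin, was at 2301 and 1732 CPM, against 2380 and 2537 CPM, and Lypd8, which binds flagellated bacteria, at 3485 and 5788 CPM, against 3656 and 3722 CPM. The following 3 were picked after their values were seen. Reg4, a secreted lectin, was at 169 and 146 CPM, against 511 and 435 CPM (log2 -1.59 ± 0.32, adjusted p = 0.27), and Klk1, a kallikrein protease, at 432 and 524 CPM, against 1090 and 1196 CPM. Retnlb, the goblet resistin-like molecule, was at 311.01 and 1809 CPM, against 103 and 124 CPM (log2 3.22 ± 0.79, adjusted p = 0.47).

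Goblet transcription factors, glycosylation enzymes, folding genes and granule genes had medians near that of all genes. For comparison with the counts here, 17.7% of all genes tested lay higher in both allogeneic libraries and 18.5% lower. Of 13 transcription factors 2 lay higher and 4 lower, with a median of 0.00 on the log2 scale. Spdef, which drives secretory maturation, was at 236 and 163 CPM in allogeneic 1 and 2, against 233 and 166 CPM in syngeneic 1 and 2, and Klf4, needed for goblet differentiation, at 321 and 382 CPM, against 239 and 239 CPM. Of 27 glycosylation genes that passed the filter 5 lay higher and 6 lower (median -0.11). Galnt7, which starts mucin glycans, was at 424 and 192 CPM, against 390 and 422 CPM. Of 27 folding and stress-response genes 2 lay higher and 6 lower (median -0.06); Hspa5, the chaperone BiP, was at 729 and 1002 CPM, against 997 and 1219 CPM. Of 21 granule and exocytosis genes 3 lay higher and 5 lower (median 0.08, or -0.03 with library totals in place of TMM), with Tmed3, a cargo receptor of the Golgi, at 279 and 153 CPM, against 344 and 402 CPM. On library totals 2 transcription factors lay higher and 5 lower, and 3 and 7 glycosylation genes. Folding genes had 1 and 10 and granule genes 2 and 8, against 919 and 1872 of all 7629 genes. No gene of these 4 lists was called, the intervals of single genes remain wide, and a missed call does not show that levels were alike.

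The 6 criterion genes, given as a description, did not move together. Agr2 was at 10407 and 17226 CPM in allogeneic 1 and 2, against 17534 and 21606 CPM in syngeneic 1 and 2. Muc2 was at 4997 and 4316 CPM, against 6150 and 6582 CPM, and Fcgbp at 4805 and 5304 CPM, against 6584 and 7750 CPM. Zg16 was at 22129 and 43142 CPM, against 35264 and 40728 CPM, and Tff3 at 18353 and 11834 CPM, against 13864 and 18112 CPM, so that groups overlapped for both. Clca1, the mucus-processing metalloprotease, was at 2442 and 3043 CPM, against 2073 and 1760 CPM.

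**Figure D4:**
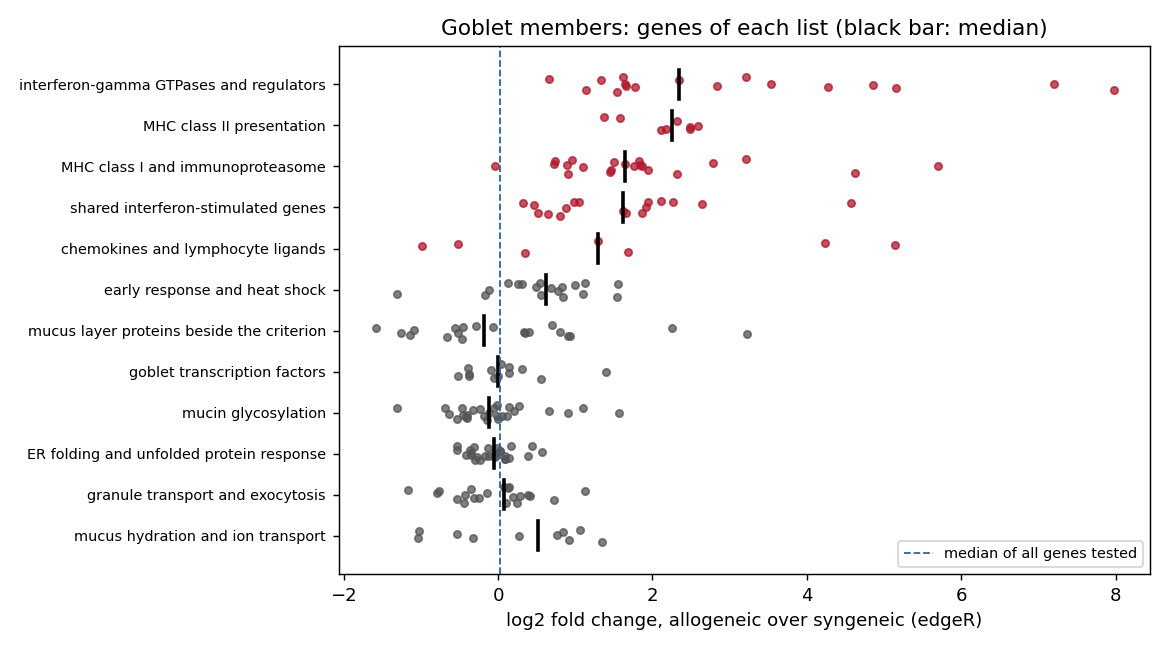
Each point is the log2 fold change, allogeneic over syngeneic, of 1 gene of the named list that passed the filter on low counts; black bars are list medians and the dashed line is the median of all genes tested (0.03). The 4 interferon and MHC lists have medians from 1.62 to 2.35 and the chemokine list 1.29 (all red). Medians of the mucus layer, glycosylation, folding and granule lists lie from -0.18 to 0.08. The mucus hydration and ion transport list has a median of 0.52 and the early response list 0.62.

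Early response, cell death and p53 genes lay higher in both allogeneic libraries more often than lower, without a call, and antimicrobial genes were split; over all genes tested 17.7% lay higher and 18.5% lower. Of 9 antimicrobial genes that passed the filter 2 lay higher and 1 lower. Ang4, an angiogenin of Paneth and goblet cells, was at 1740 and 1673 CPM in allogeneic 1 and 2, against 466 and 90.9 CPM in syngeneic 1 and 2, while Reg3b, a bactericidal lectin, was at 2365 and 17775 CPM, against 11917 and 10620 CPM. The syngeneic values of Ang4 lay far apart from each other. Of 18 early response and heat shock genes 9 lay higher and 1 lower (median 0.62), among them Fos at 552 and 491 CPM, against 335 and 377 CPM, and Jun at 565 and 403 CPM, against 336 and 330 CPM. With library totals in place of TMM 6 of these 18 lay higher, as did 9 of the cell death genes and 3 of the p53 genes below. Of 20 cell death effectors 9 lay higher and 3 lower, among them Gsdmd, the pore former of pyroptosis, at 81.3 and 186 CPM, against 52.8 and 48.7 CPM. Of 11 p53 targets 5 lay higher and 1 lower, with Cdkn1a, the p21 inhibitor, at 134 and 444 CPM, against 102 and 103 CPM. The other named p53 targets had log2 fold changes of 0.34 (Bax), 0.23 (Perp) and -0.33 (Btg2). Those of the other named cell death genes were 0.58 (Mcl1), 0.45 (Casp1) and -0.39 (Pycard). For the other named early response genes they were 0.68 (Jund) and -0.17 (Hspa8). None of these genes was called.

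The interferon and MHC genes were also read within members led by the same criterion gene, since allogeneic 1 held mostly Tff3-led cells. These fits were added after the data were seen. With Tff3-led members left out, 36 genes were called among 7345 tested, 33 higher and 3 lower, among them all 4 of the genes above. Within Agr2-led members 66 were called among 4824 tested, 51 higher and 15 lower. Within Zg16-led members 0 were called among 5235 tested (784 at an unadjusted p under 0.05). The criterion genes define these sets, and leaving out Tff3-led cells took 83 of 135 members from allogeneic 1. The counts of calls are therefore not comparable with the 4 calls in all members. In the Agr2-led members H2-Aa was at 1445 and 1127 CPM in allogeneic 1 and 2, against 173 and 223 CPM in syngeneic 1 and 2 (CPM of the subset). In the Zg16-led members it was at 548 and 954 CPM, against 331 and 199 CPM. Its log2 fold change was 2.74 in Agr2-led and 1.70 in Zg16-led members. H2-Q7 was at 415 and 392 CPM, against 15.6 and 23.8 CPM, in Agr2-led members. In Zg16-led ones it was at 88.1 and 112 CPM, against 7.05 and 2.096 CPM. The log2 fold change of H2-Q7 was similar in both sets, 4.41 in Agr2-led and 4.55 in Zg16-led members. Ido1 in the syngeneic libraries was found almost only in Zg16-led members, at 120 and 153 CPM, with 1.73 and 0 CPM in Agr2-led and 0 and 0 CPM in Tff3-led ones. In the allogeneic libraries Ido1 was at 822 and 2350 CPM in Zg16-led and 745 and 2299 CPM in Agr2-led members.

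Whether the log2 fold change, allogeneic over syngeneic, differed between goblet members and other epithelial cells was tested in 1 model over both cell groups with the library as a block. Of 11103 genes not used by the rule the signed log2 fold change was higher in members for 22 (0.198%) and lower for 24 (0.216%; edgeR, adjusted p under 0.05). In other epithelial cells by themselves 46 of 11616 genes were called (0.396%). The 6 called MHC class II genes were all among the 22, out of 9 in the list. On the scale of this fit Cd74 was at 6158 and 7265 CPM in members of allogeneic 1 and 2, against 1130 and 1098 CPM in those of syngeneic 1 and 2. In other epithelial cells it was at 4142 and 6424 CPM in the allogeneic and 3012 and 3147 CPM in the syngeneic libraries. The difference of the log2 fold changes was 1.84 ± 0.21 (edgeR adjusted p = 0.0051). H2-DMa had a difference of 1.72 ± 0.24, H2-Aa 1.65 ± 0.21, H2-DMb1 1.63 ± 0.21, H2-Eb1 1.55 ± 0.23 and H2-Ab1 1.39 ± 0.21 (edgeR adjusted p from 0.00757 to 0.0169). In the class I list H2-Q7 (1.51 ± 0.24), H2-Q4 (1.43 ± 0.26) and B2m (1.15 ± 0.19) were called, with edgeR adjusted p from 0.0241 to 0.0423. These genes also rose in other epithelial cells by themselves, with log2 fold changes of 3.07 for H2-Q7, 1.78 for H2-Q4 and 1.63 for B2m. Of these H2-Q7 was called there (edgeR adjusted p = 0.0237). Leaving out syngeneic 1 or syngeneic 2 left 0 calls (626 and 412 genes at an unadjusted p under 0.05), leaving out allogeneic 1 gave 519 and allogeneic 2 gave 15. The fit that left out Tff3-led members kept all 46 calls among 187 (11128 genes tested), while Zg16-led members alone gave 24 (10942 tested) and Agr2-led alone 22 (11106 tested). In Zg16-led members none of the 6 class II genes was called: the difference was 1.31 for Cd74 (edgeR adjusted p = 0.109), 0.83 for H2-Aa (0.346) and 0.59 for H2-DMa (0.701). In Agr2-led members it was 1.81 for Cd74, 1.87 for H2-Aa and 1.97 for H2-DMa, all called. Other epithelial cells are a mixture, and their marker sums also differed between libraries. Their stem cell markers summed to 1519 and 347 CPM in allogeneic 1 and 2, against 2198 and 1674 CPM in syngeneic 1 and 2. Their enterocyte markers summed to 10064 and 29119 CPM, against 18822 and 25254 CPM. The part of this mixture in the differences was not tested.

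The starting level differed between cell groups in the syngeneic libraries. The 9 class II genes summed to 2063 and 1919 CPM (of all UMIs of the group) in syngeneic members, to 3055 and 2718 CPM in cycling cells that pass the goblet criterion, to 2019 and 1777 CPM in cells rich in Lyz1 and defensins, and to 5783 and 5849 CPM in other epithelial cells of syngeneic 1 and 2. In the allogeneic libraries the same sums were 11264 and 8785 CPM in members, 9303 and 8445 CPM in cycling cells, 8996 and 10825 CPM in defensin-rich cells and 9149 and 9064 CPM in other epithelial cells. The secretory groups were thus lower than the other cells in the syngeneic libraries and near them in the allogeneic ones. The 22 class I genes summed to 11517 and 12800 CPM in members of allogeneic 1 and 2, against 3852 and 3773 CPM in those of syngeneic 1 and 2. In defensin-rich cells they summed to 7032 and 9584 CPM, against 2108 and 1940 CPM, and in other epithelial cells to 10005 and 11305 CPM, against 5258 and 5412 CPM.

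**Figure D5:**
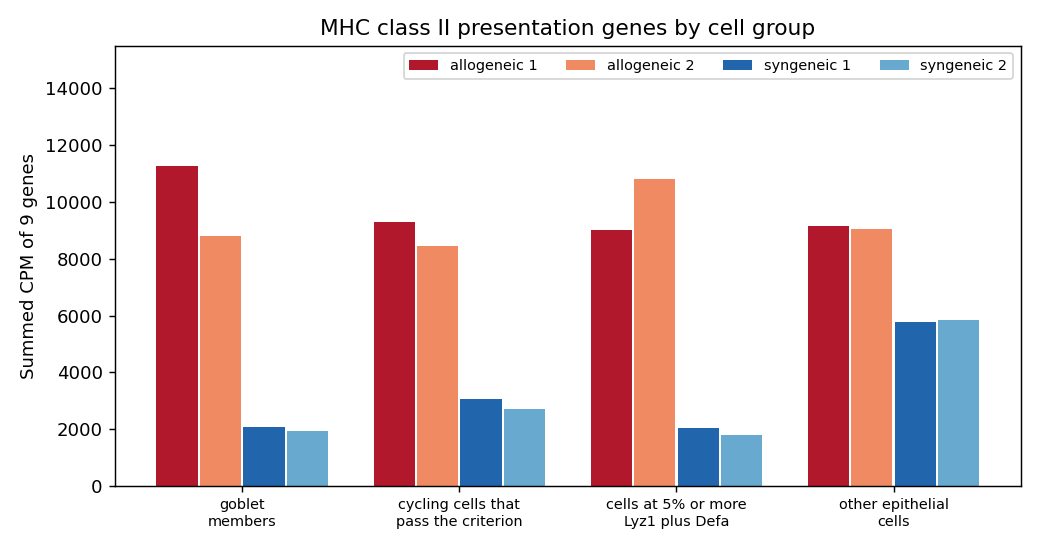
Summed level of the 9 MHC class II presentation genes (CPM) in 4 groups of cells; each bar is 1 library, allogeneic ones left of syngeneic ones. In goblet members the bars stand at 11264 and 8785 CPM in allogeneic and 2063 and 1919 CPM in syngeneic libraries, while other epithelial cells stand at 9149 and 9064 CPM against 5783 and 5849 CPM.

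Of the 24 genes whose signed log2 fold change was lower in members, Ido1, St6galnac6, Nr4a1 and Anxa3 had the largest differences (-4.94, -3.68, -2.97 and -2.46). Ido1 was at 711 and 3003 CPM in members of allogeneic 1 and 2, against 54.8 and 71.7 CPM in those of syngeneic 1 and 2, and at 161 and 562 CPM in allogeneic and 0.259 and 0.577 CPM in syngeneic other epithelial cells (difference -4.94 ± 0.32, adjusted p = 3.51e-05). Its level was higher in members than in other epithelial cells in every library. In Agr2-led members the difference was 0.90 (adjusted p = 0.915), so the call was lost and the sign turned, and in Zg16-led members it was -6.00. Spdef differed by -1.54 ± 0.29 (adjusted p = 0.0434): it was at 239 and 174 CPM in allogeneic and 241 and 174 CPM in syngeneic members, but at 17.8 and 15.9 CPM in allogeneic and 8.97 and 3.23 CPM in syngeneic other epithelial cells. Fkbp11, a folding enzyme of secretory cells (-2.05 ± 0.22), Mmp7 (-2.03 ± 0.25) and Sytl2, a tether of secretory granules (-1.61 ± 0.29), were called the same way. Atoh1 was among the 24 as well. Other epithelial cells with 0.5% or more, but under 1%, of UMIs in the criterion genes made up 7.44% and 5.58% of that group in allogeneic 1 and 2, against 3.50% and 2.54% in syngeneic 1 and 2. The limit of 1% sorts cells in both groups, and its part in these differences was not tested.

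Among the other genes whose signed log2 fold change was higher in members, Cyp2c68 and Tm4sf4 fell in other epithelial cells of the allogeneic libraries, and their change in members was smaller (log2 -0.70 for Cyp2c68 and -0.82 for Tm4sf4). Tm4sf4, a tetraspanin-like membrane protein, was at 82.5 and 79.8 CPM in allogeneic and 144 and 144 CPM in syngeneic members, and at 7.76 and 6.94 CPM in allogeneic and 40.3 and 39.5 CPM in syngeneic other epithelial cells (difference 1.62 ± 0.22, adjusted p = 0.0131). Its fall in other epithelial cells was called by itself (log2 -2.46, edgeR adjusted p = 0.0237), as was that of Cyp2c68 (log2 -3.39, adjusted p = 0.0368), a cytochrome P450. Sectm1b, a secreted ligand of T and NK cells, was at 43.7 and 146 CPM in allogeneic and 10.3 and 18.6 CPM in syngeneic members (difference 1.62 ± 0.27, adjusted p = 0.0283). Clca4a, a chloride channel accessory protein, was at 14.6 and 38.8 CPM in allogeneic and 19.9 and 33.4 CPM in syngeneic members, and at 29.4 and 41.4 CPM in allogeneic and 115 and 215 CPM in syngeneic other epithelial cells (difference 2.22 ± 0.32, adjusted p = 0.0166).

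A small set of members in 1 library carried Car1, carbonic anhydrase 1, a gene of the large bowel epithelium. In allogeneic 2, 16 of 274 members had 1292 Car1 UMIs in all, with up to 497 in a cell and 9 cells at 5 or more. No Car1 UMI was found in the 135 members of allogeneic 1, the 286 of syngeneic 1 or the 263 of syngeneic 2, which allows shares of up to 2.22%, 1.05% and 1.14% of members with a Car1 UMI and sets no limit on members that express the gene. Other epithelial cells of allogeneic 2 had Car1 in 5.78% and T cells in 2.88% of 104, so the share in members was near that of other epithelial cells. Retnlb was at 6850 CPM in the Car1 members and 1151 CPM in the other members of allogeneic 2, and Prdx6, a peroxidase, at 1479 and 249 CPM. Without cells that had a Car1 UMI the same 4 genes were called in members, and 37 of the 46 differences against other epithelial cells.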

How the data were processed

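Single cells of isolated small-intestinal crypts were profiled with 10x Genomics 3′ chemistry, per the labels' protocols. The UMI counts per gene and cell were deposited by the authors without normalisation; Cell Ranger 2.1.1 and build mm10 are named in the submitters' processing notes, and the matrix header names software version 3.1.0. A dense copy of each matrix had the same total and was not used. Barcodes with at least 500 genes, 1000 UMIs and at most 20% mitochondrial UMIs were kept (12285 of 16565; 14961466 to 26677842 UMIs per library before this step), and the libraries shared 2 to 7 barcodes a pair, 0 among members. Other epithelial cells had at least 3 UMIs over 5 keratin and adhesion genes, under 1% in the criterion genes and no Ptprc. Scrublet (scanpy 1.11.5, exact neighbours) marked 108 kept cells as doublets, 8 of them members; they stayed in and were removed as an alternative.

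Members' counts were summed per library (602345 to 1244980 UMIs) and fitted with edgeR 4.0.16 (TMM, filterByExpr, robust quasi-likelihood test, Benjamini-Hochberg over all genes); DESeq2 1.42.0 was an alternative. Both were tested on simulated counts. CPM of single genes are TMM-scaled unless named as of a subset or group; sums over lists are scaled to all UMIs of the cells, so the scales differ. Genes used by the rule entered the fits but no count of calls. Named genes were the called ones, filled to 12 a direction by fold change among genes with nearest libraries at least 2-fold apart (CPM plus 1) and 20 CPM in the higher group, plus the 4 most abundant of each of 31 lists and up to 10 a direction for the test against other epithelial cells; predicted genes were not named, and not every named gene is printed. Positions are from GENCODE vM21 (136 of 136 identifiers matched). The members, lists and tests were chosen with earlier results of these data known. Intervals cover counting error only, and the 2 sets of counts per group limit every test.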

Additional observations from a re-analysis of the deposited data

Results flagged for a closer look

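Goblet members differed from other epithelial cells in the size of the allogeneic difference for 46 genes, by the interaction term of 1 fit over both cell groups (edgeR, Benjamini-Hochberg adjusted p under 0.05). All values below are the log2 fold change in members minus that in other epithelial cells.

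The value was positive, a log2 fold change higher on the signed scale in members, for Cyp2u1 (2.77), Cyp2c68 (2.71), Clca4a (2.22), Zbtb20 (2.03), Cd74 (1.84), H2-DMa (1.72), H2-Aa (1.65), H2-DMb1 (1.63), Sectm1b (1.62) and Tm4sf4 (1.62). For Cyp2c68, Clca4a and Tm4sf4 the allogeneic change itself was smaller in members, with log2 fold changes of -0.70, 0.04 and -0.82 in members and -3.39, -2.24 and -2.46 in other epithelial cells. Cyp2u1 and Cyp2c68 were low in both cell groups, at 25.9 and 17.7 CPM for Cyp2u1 in members of allogeneic 1 and 2, against 7.94 and 3.93 CPM in those of syngeneic 1 and 2.

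The value was negative, a log2 fold change lower on the signed scale in members, for Ido1 (-4.94), St6galnac6 (-3.68), Nr4a1 (-2.97), Anxa3 (-2.46), Fkbp11 (-2.05), Mmp7 (-2.03), S100a14 (-1.81), Hpd (-1.78), Sytl2 (-1.61) and Spdef (-1.54). Nr4a1 and St6galnac6 were low as well, with St6galnac6 at 8.08 and 14.4 CPM in members of allogeneic 1 and 2, against 19.9 and 27.5 CPM in those of syngeneic 1 and 2. Ido1, St6galnac6, Nr4a1 and Anxa3 were near the floor in syngeneic other epithelial cells, at 2.59 CPM or less.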

How the results depend on the processing

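The lower share of members, -4.22 percentage points, was -3.30 with 0.5% as the goblet limit, -5.39 with 10% as the mitochondrial limit and -2.85 with Lyz1 plus defensins under 1%; without 1 library at a time it ranged from -4.69 to -3.75. The 4 calls in members became 7 at a limit of 0.5%, 0 at 2% (632 at an unadjusted p under 0.05), 31 at 5%, 50 by DESeq2, 29 with cells thinned to 2000 UMIs, 66 in Agr2-led members, 36 in Zg16-led or Agr2-led members and 0 in Zg16-led ones (784). They became 0 with defensins under 1% (485), on library totals (474), at 20 CPM in 2 libraries (346) and without the robust option (500), all by edgeR. Without doublets 5 were called, but none when Scrublet used an approximate neighbour search, whose marks varied between runs; the adjusted p of the 4 calls lies just under the threshold. Without 1 library at a time they ranged from 21 to 1850. The 46 differences against other epithelial cells became 70 at 0.5%, 19 at 2%, 170 at 10% mitochondrial, 14 with defensins under 1%, 24 in Zg16-led, 22 in Agr2-led and 187 in Zg16-led or Agr2-led members, 18 without the robust option and 27 with equal cell numbers; without 1 library at a time they ranged from 0 to 519. The causes were not tested.

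Without allogeneic 2, the log2 fold change was -0.72 for Anxa2, -1.56 for Ccl25, -1.94 for Fabp2, -3.81 for Fabp6, -0.67 for Krt20, -2.26 for Reg3b and 1.06 for Slc12a2. Without allogeneic 1 it was 1.12 for Anxa2, 1.13 for Ccl25, 1.84 for Fabp2, 0.57 for Fabp6, 2.1004 for Krt20, 0.66 for Reg3b and -1.59 for Slc12a2. In Agr2-led members the difference of Ido1 against other epithelial cells was 0.90 (edgeR adjusted p = 0.915).

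No paired analysis was possible because the labels give no replicate numbers that groups share; the numbers used here follow accession order. With 2 pools a group, small differences were not detectable at this depth. The alternatives that leave out Car1 cells, lower the defensin limit or take members by leading gene were chosen after seeing the data.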
